A study of Homo sapiens with 6 samples.

Results

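The epidermal lineage transcription factors described here are 10 genes of HaCaT cells, a spontaneously immortalised human keratinocyte line: TP63, KLF4, KLF5, GRHL1, GRHL2, GRHL3, ZNF750, OVOL1, PRDM1 and SOX15. They were chosen by name from a deposited table of 57281 genes, and each name occurred there once. The table covered 6 poly(A) RNA-seq libraries. In 3 biological replicates the cells received TGF-β1 (transforming growth factor β1, 10 ng/ml) for 24 h, and in 3 they received the same TGF-β1 together with silymarin (31.25 µg/ml), a milk thistle seed extract rich in flavonolignans. No library without TGF-β1 was analysed here, so every difference below is that of silymarin added to TGF-β1. All cultures derive from 1 cell line, whose cells share 1 origin.

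Stratified epidermis is built by keratinocytes that leave the basal layer, stop dividing and fill with cornified envelope proteins. p63, the product of TP63, holds the basal programme and is needed to form a stratified epithelium at all. The other factors act around it: KLF5 and GRHL2 maintain epithelial identity, OVOL1 helps cells to leave the cell cycle, and KLF4, GRHL3, ZNF750 and PRDM1 (also called BLIMP1) serve terminal differentiation and the skin barrier.

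With silymarin, 6 of these genes fell and 2 rose, while TP63 and SOX15 did not pass the test. The falls were deepest for ZNF750, PRDM1 and GRHL3, with mean normalized read counts at 0.248, 0.377 and 0.547 of the level with TGF-β1 without silymarin. OVOL1 stood at 0.677, GRHL2 at 0.853 and KLF5 at 0.835 of that level. KLF4 rose to 1.24 times and GRHL1 to 1.203 times that level, although the call of GRHL1 was lost when any 1 library was left out. Calls rest on limma fitted to log2(value + 1) over all tested genes, with a Benjamini-Hochberg adjusted p under 0.05. Of 17296 genes tested, 34.2% were called, 16% higher and 18.2% lower. ZNF750 entered the test through the libraries without silymarin only, and without it 7 of 9 members were called, 2 higher and 5 lower. In 8 members the 2 groups of libraries did not overlap, which held for 47.1% of tested genes. Without silymarin replicate 2, a library described below, limma called KLF4 and SOX15 higher and TP63 lower beside the 6 above, while GRHL1 lost its call. Of all tested genes 20.3% were then higher and 21.5% lower. With every library corrected for the trend of GC content and length, KLF4 and GRHL1 were higher and TP63 was again lower beside the 6, against 21.4% and 22.2% of tested genes.

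RefSeq promoter windows (GRCh38.p14) were found for 6 members: TP63, KLF4, KLF5, GRHL1, GRHL3 and PRDM1. The sequences below are from the 250 bases before a RefSeq start and leave out any base annotated as UTR. They are shown for the members that rose and for 3 that fell, so that the directions can be read side by side. Windows and motifs were chosen after the values were seen. Capitals mark every match, on either strand, to the searched motifs. These were the GC box GGGCGG, the KLF-type element CCACCC, the grainyhead element AACNGGTT, the AP-1 site TGANTCA, the OVOL core CCGTTA, the SOX core AACAAT and the PRDM1 core CTTTCA. No match to 1 of these motifs overlapped a match to another in the windows shown.
KLF4 (rose), chr9:107489770-107490019, minus strand: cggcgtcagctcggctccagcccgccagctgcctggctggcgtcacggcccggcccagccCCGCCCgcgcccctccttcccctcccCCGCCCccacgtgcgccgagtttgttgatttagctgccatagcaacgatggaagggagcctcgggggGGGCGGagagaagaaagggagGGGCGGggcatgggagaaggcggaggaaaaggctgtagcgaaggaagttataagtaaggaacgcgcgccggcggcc
GRHL1 (rose), chr2:9951443-9951692, plus strand: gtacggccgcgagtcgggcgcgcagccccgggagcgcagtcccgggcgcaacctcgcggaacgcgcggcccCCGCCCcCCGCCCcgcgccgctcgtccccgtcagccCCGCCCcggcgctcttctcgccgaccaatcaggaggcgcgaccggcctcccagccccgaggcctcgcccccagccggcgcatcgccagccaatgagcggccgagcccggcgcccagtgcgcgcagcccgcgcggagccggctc
GRHL3 (fell), first start, chr1:24319107-24319321, plus strand: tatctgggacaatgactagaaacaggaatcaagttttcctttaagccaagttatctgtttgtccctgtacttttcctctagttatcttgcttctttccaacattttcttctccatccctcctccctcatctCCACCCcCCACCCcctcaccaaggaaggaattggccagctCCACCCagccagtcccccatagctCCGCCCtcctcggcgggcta
PRDM1 (fell), second start, chr6:106098691-106098939, plus strand: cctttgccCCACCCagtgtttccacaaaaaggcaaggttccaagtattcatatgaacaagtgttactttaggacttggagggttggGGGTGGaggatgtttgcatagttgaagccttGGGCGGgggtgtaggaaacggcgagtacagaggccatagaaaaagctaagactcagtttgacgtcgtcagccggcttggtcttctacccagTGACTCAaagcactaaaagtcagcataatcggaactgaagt
KLF5 (fell), first start, chr13:73054726-73054975, plus strand: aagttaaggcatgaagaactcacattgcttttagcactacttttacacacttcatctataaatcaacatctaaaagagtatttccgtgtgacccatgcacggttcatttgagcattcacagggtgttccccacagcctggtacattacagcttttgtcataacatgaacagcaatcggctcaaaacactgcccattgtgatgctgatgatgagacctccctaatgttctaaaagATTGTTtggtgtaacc

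The windows of KLF4 and GRHL1 were 69.2% and 81.6% G or C. Those of GRHL3, PRDM1 and KLF5 as shown were 51.2%, 48.6% and 40.8%, and the TP63 window was 44.0%. Over 34788 distinct RefSeq windows of 250 bases the median was 58.0%, with quartiles of 46.4% and 68.0%. The KLF4 window held 4 GC boxes and the GRHL1 window 3, and neither held any other searched motif. GC boxes also occurred in members that fell, with 1 in the first GRHL3 window, 1 in the second PRDM1 window and 2 in the 250 bases before the second KLF5 start, which are not shown. A GC box occurred in 42.6% of all windows. The first GRHL3 window held 3 CCACCC elements and the second PRDM1 window 2, and 31.2% of all windows held at least 1. Among windows not shown, the second of GRHL3 (52.0% G or C) held 1 CCACCC element and no other searched motif. The first PRDM1 window (53.0%) and the TP63 window held no searched motif. The PRDM1 window also held an AP-1 site (6.59% of all windows) and the KLF5 window a SOX core (9.0%). These matches describe letters only. Neither the use of these starts nor binding of a factor was measured, and with so few windows the base composition and the direction of change are set side by side without a test.

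Depth and composition differed between libraries in ways that touch some members. Reads recovered from the deposited values came to between 20240542 and 30279391 in 5 libraries, and no reads were taken from TGF-β1 replicate 3. Silymarin replicate 2 was the shallowest, and its deviation from its group mean ran against GC content over 16828 genes (Spearman correlation -0.56). Keratinocyte markers (KRT5, KRT14, TP63, SFN, PERP and DSG3) were abundant, with a summed normalized count of 246100 to 254100 without and 149000 to 163100 with silymarin. Among markers of other cell types, 1 of 7 fibroblast genes (COL1A1), 2 of 6 melanocyte genes (MITF, PMEL), 2 of 4 endothelial genes (CDH5, VWF) and 0 of 6 leukocyte genes reached the level for testing. The summed count went from between 3332 and 3511 to between 1714 and 2055 for fibroblast genes, from between 218 and 232 to between 292 and 364 for melanocyte genes, and from between 119.6 and 136 to between 207 and 259.6 for endothelial genes. It was at most 15.03 in any library for leukocyte genes. These sums rest on single genes more than on whole lists. Nearly all of the fibroblast sum was COL1A1 (mean 3386 without and 1902.5 with silymarin). MITF rose (146 to 247), while PMEL did not pass the test (75.8 to 69.4). CDH5 rose (34.1 to 157), while VWF did not pass (93.0 to 71.3). DCN, THY1, TYR, SOX10 and AIF1 were at 0 in every library. The part of these markers in the members' differences was not tested. In bulk RNA, fewer cells of a type and less RNA per cell cannot be told apart.

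**Figure D1:**
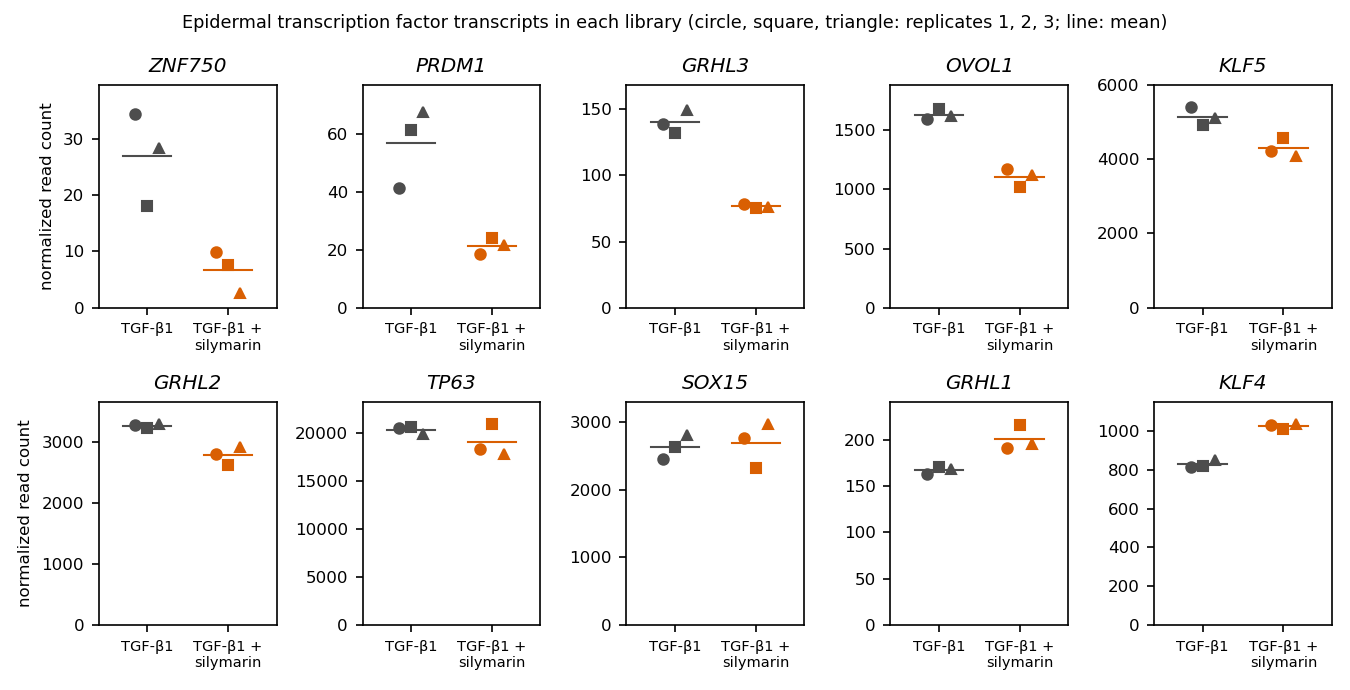
Normalized read counts (vertical axes, from 0) of the 10 transcription factors in each library, with TGF-β1 in grey and TGF-β1 plus silymarin in orange. Symbols are the 3 replicates and lines their mean. The groups lie apart for 8 genes and overlap for TP63 and SOX15.

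TP63 (chromosome 3, 189631416 to 189897279, GRCh38) was the most abundant member. Its normalized read counts were 20542, 20663 and 19834 in the 3 libraries with TGF-β1 and 18362, 20969.6 and 17762 in those with silymarin. Silymarin replicate 2 was the highest library of all 6, whereas replicates 1 and 3 were the lowest, so the groups overlapped. The log2 fold change was -0.10 (SE 0.0591, adjusted p = 0.216), with a 95% interval from -0.23 to 0.03. Without silymarin replicate 2 it was -0.17 (adjusted p = 0.000179), and after the correction for GC content and length -0.12 (adjusted p = 0.0147). TP63 stayed uncalled under 15 of 18 alternative fits. Without silymarin replicate 3, for example, the log2 fold change was -0.05 (adjusted p = 0.549). Gene counts do not separate the TP63 isoforms with and without the N-terminal transactivation domain, which start at different promoters.

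SOX15, a SRY-box factor gene (chromosome 17, 7588178 to 7590170), had 2454, 2625 and 2811 normalized counts without and 2764, 2324 and 2966 with silymarin. Here silymarin replicate 2 was the lowest library and silymarin replicate 3 the highest. The log2 fold change was 0.02 (adjusted p = 0.846; 95% interval -0.15 to 0.20). It was 0.12 (adjusted p = 0.0439) without silymarin replicate 2 and 0.07 (adjusted p = 0.277) once corrected for GC content and length, and its sign turned without TGF-β1 replicate 1, silymarin replicate 1 or silymarin replicate 3 (lowest value -0.05). Exons of MPDU1 overlap SOX15 on the opposite strand. MPDU1 had 1369 to 1486 normalized counts without and 1319 to 1496 with silymarin. Whether counting used strand is not given in the sources used here, and the reads of the overlap cannot be assigned to either gene with certainty.

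The transcripts of TP63 and SOX15 lie near the ends of the members' range of GC content, at 42.5% and 61.7%. On the log2 scale silymarin replicate 2 stood 0.22 above the mean of the other silymarin libraries for TP63 and 0.30 below it for SOX15 (difference -0.30). It also stood above that mean for GRHL1 (0.16, 42.3% GC), PRDM1 (0.26, 45.7% GC), KLF5 (0.14, 47.0% GC) and ZNF750 (0.47, 53.2% GC). The differences were -0.12 for GRHL2, -0.04 for GRHL3, -0.03 for KLF4 and -0.17 for OVOL1, at 49.8%, 52.1%, 55.0% and 58.3% GC.

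**Figure D2:**
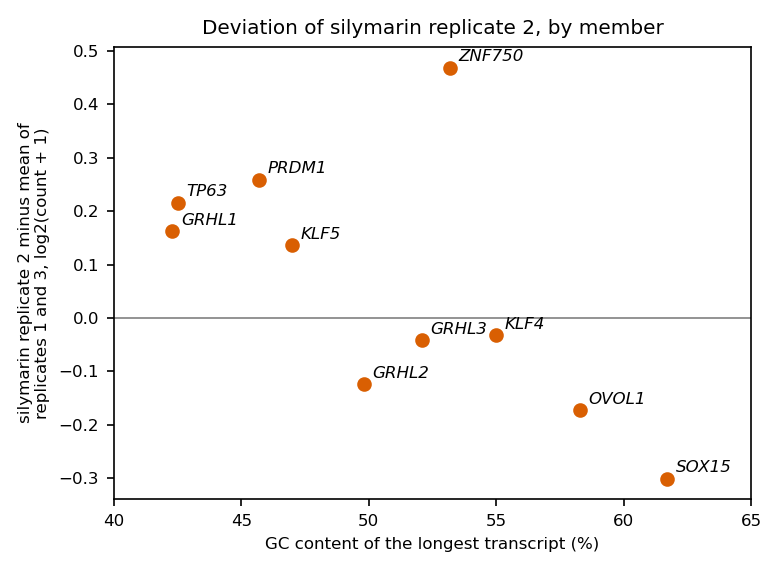
Deviation of silymarin replicate 2 from the mean of silymarin replicates 1 and 3 (vertical axis, log2 of count + 1) against GC content of the longest transcript (horizontal axis, percent), 1 point per member. Members with under 48% GC lie above 0 and 5 of the other 6 below it, with SOX15 lowest at -0.30 and ZNF750, the member with the fewest reads, highest at 0.47.

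The Krüppel-like factors KLF4 and KLF5 bind similar CACCC and GC-rich elements and moved in opposite directions. KLF4 (chromosome 9, 107484852 to 107490482) had 817, 819 and 849.5 normalized counts without and 1032, 1011 and 1035 with silymarin. Every silymarin library was above every library without it. The log2 fold change was 0.31 (SE 0.0565, adjusted p = 0.000872). KLF5 (chromosome 13, 73054976 to 73077542), a factor of proliferating basal cells, had 5398, 4924 and 5104 normalized counts without and 4220, 4565 and 4091 with silymarin. Again the groups did not overlap, and the log2 fold change was -0.26 (SE 0.0550, adjusted p = 0.00235). Both calls held under all 18 alternatives, from 0.30 to 0.34 for KLF4 and from -0.31 to -0.23 for KLF5.

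The ratio of KLF4 to KLF5 within a library does not depend on how libraries are scaled. It was 0.151, 0.166 and 0.166 without and 0.244, 0.221 and 0.253 with silymarin, a mean of 0.161 ± 0.0087 against 0.240 ± 0.0164 (SD, n = 3 per group). The 2 groups of ratios had to lie apart, because neither gene's groups overlapped and the genes moved in opposite directions. The same held for the ratios of GRHL1 to GRHL2 and of GRHL1 to GRHL3. An exact two-sided permutation test gave p = 0.1, the smallest that 3 libraries against 3 allow. It gave the same p for each of 3 ratios among the grainyhead genes (adjusted p = 0.1 over the 4 ratios). Where the ratios had to lie apart, this p-value was fixed in advance and adds nothing to the members' own values.

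The grainyhead-like factors share a DNA-binding domain and bind the same element, and their transcripts also divided. GRHL1 (chromosome 2, 9951693 to 10002277), which acts on desmosomal cadherin genes, had 163, 170.4 and 169 normalized counts without and 191, 217 and 196 with silymarin. The groups did not overlap, but the rise was small (log2 fold change 0.26, SE 0.0946) and close to the threshold (adjusted p = 0.0461). It was lost when any 1 of the 6 libraries was left out (adjusted p from 0.0612 to 0.136) and with edgeR or DESeq2 on the reads of 5 libraries (adjusted p = 0.0975 and 0.312). With no filter on low values the adjusted p was 0.0743.

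GRHL2 (chromosome 8, 101492432 to 101669726), a keeper of epithelial junction genes, had 3286, 3231 and 3297 normalized counts without and 2812, 2633 and 2928 with silymarin. The spread was wider with silymarin, and the groups did not overlap (log2 fold change -0.23, SE 0.0519, adjusted p = 0.00375). An antisense gene, KB-1562D12.1, shares exonic positions with GRHL2 and had 254 to 277 normalized counts without and 221 to 267 with silymarin, so a small part of either count may belong to the other. GRHL3 (chromosome 1, 24319322 to 24364482), which is needed for the skin barrier, fell the most of the family. Its normalized counts were 139, 132 and 149.7 without and 78.8, 75.2 and 76.2 with silymarin, and the silymarin libraries were nearly level. The log2 fold change was -0.86 (SE 0.114, adjusted p = 6.21e-05), and 6.35% of tested genes had a larger one in either direction. On the opposite strand STPG1 and an antisense gene, RP11-10N16.3, overlap GRHL3 without shared exons. STPG1 had 332 to 349 normalized counts without and 372 to 427 with silymarin, and RP11-10N16.3 had 14.5 to 20.2 and 8.66 to 10.2. Whether reads of either entered the GRHL3 count was not tested.

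These differences changed the order of the family. GRHL1 was 1.17, 1.29 and 1.13 times GRHL3 in normalized counts without silymarin and 2.43, 2.88 and 2.57 times with it. Per kb of exon, a scale on which genes can be compared, GRHL3 stood above GRHL1 without silymarin (35.6 ± 2.23 against 21.04 ± 0.515) and below it with silymarin (19.5 ± 0.471 against 25.3 ± 1.70; SD, n = 3), with no overlap of libraries in either group. GRHL2 was the most abundant of the family in both groups, at 539.8 ± 5.87 and 460.5 ± 24.5 per kb. The ratio of GRHL2 to GRHL3 counts went from 23.4 ± 1.22 to 36.4 ± 1.81 and that of GRHL1 to GRHL2 from 0.0512 ± 0.00162 to 0.0724 ± 0.00859 (SD, n = 3).

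**Figure D3:**
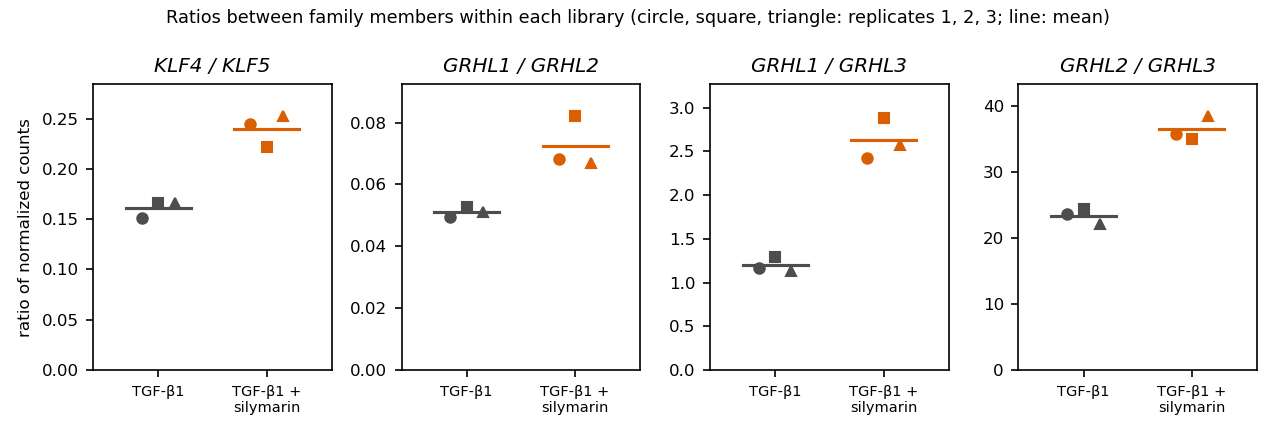
Ratios of normalized read counts between family members (vertical axes, from 0) within each library, TGF-β1 in grey and TGF-β1 plus silymarin in orange. Symbols are the 3 replicates and lines their mean. Every silymarin library lies above every library without silymarin, with means of 0.161 and 0.240 for KLF4 to KLF5 and of 0.0512 and 0.0724 for GRHL1 to GRHL2.

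OVOL1, PRDM1 and ZNF750, each the only member of its family here, are described next. OVOL1 (chromosome 11, 65787022 to 65797219), a zinc finger repressor, had 1593, 1683 and 1619 normalized counts without and 1171, 1018 and 1125 with silymarin. The groups lay far apart for their spread, and OVOL1 had the smallest adjusted p of the members (1.18e-05; log2 fold change -0.56, SE 0.0622). Of the 2 antisense genes at this locus, RP11-770G2.5 overlaps OVOL1 exons and had no more than 8.75 normalized counts in any library.

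PRDM1 (chromosome 6, 106086320 to 106109939), which encodes a repressor found in granular layer keratinocytes, was among the rarest members. Its normalized counts were 41.5, 61.6 and 67.8 without and 18.6, 24.2 and 21.6 with silymarin. TGF-β1 replicate 1 was the lowest of its group and still above every silymarin library. The log2 fold change was -1.34 (SE 0.217, adjusted p = 0.000319). In reads these levels were 47 (95% Poisson interval 34.5 to 62.5) and 68 (52.8 to 86.2) in TGF-β1 replicates 1 and 2, against 17 (9.9 to 27.2), 19 (11.4 to 29.7) and 25 (16.2 to 36.9) with silymarin. The intervals cover counting error only. The gene ATG5 overlaps PRDM1 on the opposite strand without shared exons. ATG5 had 1621 to 1655 normalized counts without and 1371 to 1467 with silymarin. Whether its reads entered the PRDM1 count was not tested.

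ZNF750 (chromosome 17, 82829435 to 82840578), a p63-dependent factor of terminal differentiation, was the rarest member. It had 34.5, 18.1 and 28.3 normalized counts without and 9.85, 7.65 and 2.60 with silymarin. The lowest library without silymarin stood above the highest with it. The log2 fold change was -1.96 (SE 0.406, adjusted p = 0.00209), but the size depends on what is added before taking logs: -2.14 with 0.1 and -1.15 with 10. The silymarin values were 9, 6 and 3 reads (95% Poisson intervals 4.12 to 17.1, 2.2 to 13.1 and 0.619 to 8.77), against 39 (27.7 to 53.3) and 20 (12.2 to 30.9) in TGF-β1 replicates 1 and 2. Only the libraries without silymarin reached 10 normalized counts, so ZNF750 entered the test through them alone, which fixed its direction as lower with silymarin. The gene TBCD overlaps ZNF750 on the opposite strand without shared exons. TBCD had 922 to 966 normalized counts without and 682 to 807 with silymarin. Whether reads of TBCD entered the ZNF750 count was not tested.

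**Figure D4:**
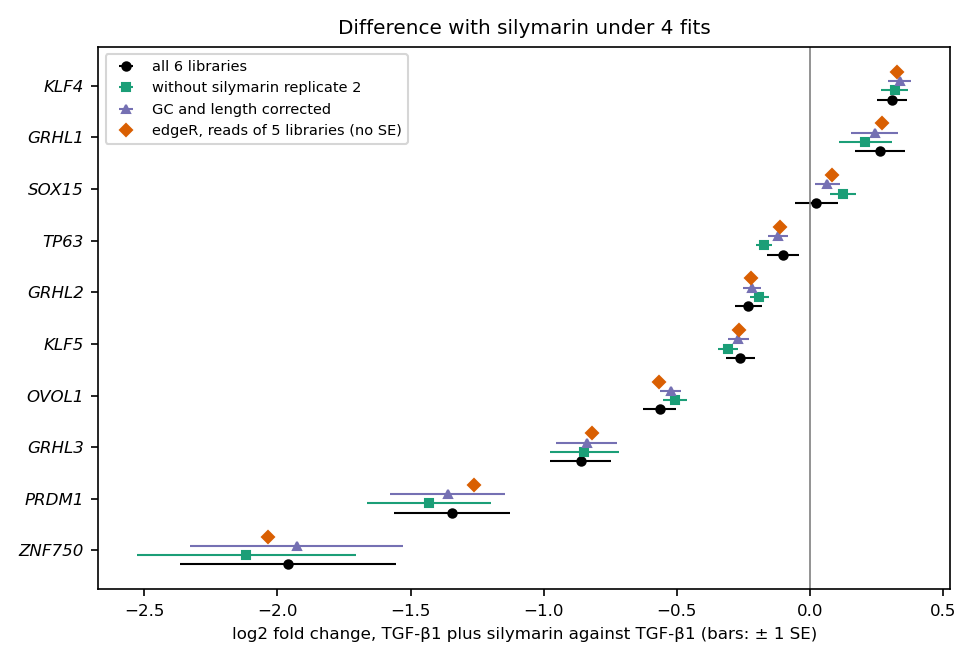
Log2 fold change of each member (horizontal axis, TGF-β1 plus silymarin against TGF-β1) in the fit of all 6 libraries, without silymarin replicate 2, with the GC and length correction, and by edgeR on the reads of 5 libraries. Bars are 1 SE, which edgeR does not give. The 4 values of a member share a sign. Without silymarin replicate 2, TP63 moves from -0.10 to -0.17 and SOX15 from 0.02 to 0.12.

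Per kb of exon the members spanned a wide range. Without silymarin the order was TP63 (2730 ± 60.1), SOX15 (1707 ± 116), KLF5 (1321 ± 61.4), GRHL2, OVOL1 (424 ± 12), KLF4 (226 ± 4.99), GRHL3, GRHL1, PRDM1 (8.91 ± 2.14) and ZNF750 (7.26 ± 2.22; SD, n = 3). Only the libraries of PRDM1 and ZNF750 overlapped among neighbours. With silymarin the order was the same but for the exchange of GRHL1 and GRHL3. OVOL1 (287 ± 20.3) came down to the level of KLF4 (280.4 ± 3.64), whose libraries it then overlapped, and ZNF750 (0.699 to 2.65) lay below PRDM1 (2.91 to 3.79). Among the 45 pairs of members, 0 shared the same order of the 6 libraries. An identical order of 6 libraries is rare for any pair of genes, so this does not show that the members vary separately. The variation between replicates was largest for the rarest genes, with a coefficient of variation of 55.5% for ZNF750 with silymarin, against 1.3% for KLF4.

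The members were set beside lists of related genes, which were chosen with earlier results of these data in view. The counts of each list stand against 16% called higher and 18.2% called lower over all tested genes. Paralogues of the members also moved both ways: of 37 in the table, 29 were tested, 8 rose, 10 fell and 11 did not pass, with a median log2 fold change of -0.04 against 0.004 over all tested genes. PRDM11 fell by 1.03, SOX9, a factor of hair follicle and progenitor keratinocytes, fell by 0.46, while SOX7 rose by 0.62 and KLF6 by 0.47. TP73, a paralogue of TP63 named after its value was seen, fell by 0.86 (adjusted p = 0.000284).

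Other transcription factors of keratinocytes moved in both directions. Of 40 listed, 35 were tested, 8 rose, 18 fell and 9 did not pass, with a median of -0.17. HOPX, counted among the falls, reached the level for testing only in the libraries without silymarin. As for ZNF750, entering the test this way fixed the direction of HOPX as lower with silymarin. ELF3, an ETS factor that serves epithelial differentiation, went from 309 ± 18.5 to 1187 ± 189 normalized counts (mean ± SD of 3 libraries), a log2 fold change of 1.93. MYC rose by 1.09, and MAF and CASZ1 fell by 0.84 and 0.79. TFAP2C fell by 0.17 (adjusted p = 0.0254). FOXN1, a differentiation factor named after its value was seen, fell by 2.02.

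Among 23 partners and chromatin regulators of these factors, 4 rose, 7 fell and 12 did not pass (median -0.05). ITCH, a ubiquitin ligase that targets p63, rose by 0.44 and the deacetylase gene HDAC1 by 0.36, whereas FBXW7 fell by 0.37 and PPP1R13L by 0.28. The other 2 that rose were CHUK and DNMT1, and 2 of the list rose when silymarin replicate 1 or any of the libraries without silymarin was left out.

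Genes on which the members are known to act were more often called lower than higher. Over all tested genes 18.2% were called lower and 16% higher. Of 30 basal and p63-linked genes, 19 fell, 3 rose and 8 did not pass (median -0.40). The hemidesmosome genes ITGA6 and DST fell by 1.08 and 1.07, and KRT14 and KRT15, keratins of basal cells, fell by 1.14 and 0.94. The 3 that rose were ADA, by 1.17, CDKN1A, a cell cycle inhibitor gene that p63 restrains, by 0.20, and ITGB1 by 0.17. Only 1 rose without TGF-β1 replicate 2 or 3, 6 without silymarin replicate 2 and 7 with the GC and length correction. Of 43 differentiation genes found, 23 were tested, of which 4 rose, 13 fell and 6 did not pass (median -0.60). Among those that fell, DSG1, DSC1 and RPTN reached the level for testing only in the libraries without silymarin. As for ZNF750, entering the test this way fixed their direction as lower with silymarin, and the counts and the median include them. KRT1 fell by 4.74, and IVL, TGM1 and DSC2 had log2 fold changes of -1.61, -1.57 and -0.89. TGM1, the envelope cross-linking enzyme and a GRHL3 target, went from 479 ± 19.9 to 161 ± 14.9 normalized counts. The 4 that rose, named after their values were seen, were KLK7 by 0.87, KLK5 by 0.69, FLG by 0.70 and ALOX12B by 0.76.

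In the list of epithelial genes linked to GRHL and OVOL factors, 31 of 34 were tested, 7 rose, 13 fell and 11 did not pass (median -0.12). Without TGF-β1 replicate 2 or 3, 8 fell. CLDN1, a tight junction gene, fell by 1.66. ARHGEF19, an exchange factor gene under GRHL3, went from 1176 ± 33.3 to 545 ± 8.75 normalized counts (mean ± SD of 3 libraries), a log2 fold change of -1.11. ELF3, already named, also stands in this list. Of the factors that repress epithelial genes, ZEB1 had 22.1, 17.2 and 18.2 normalized counts without and 33.9, 47.2 and 33.8 with silymarin (log2 fold change 0.95, adjusted p = 0.00435). SNAI2, at 4632 ± 70.8 and 4577 ± 98.6, differed by -0.02 on the log2 scale (adjusted p = 0.805). ZEB2 had at most 1.27 normalized counts in any library and was not tested.

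**Figure D5:**
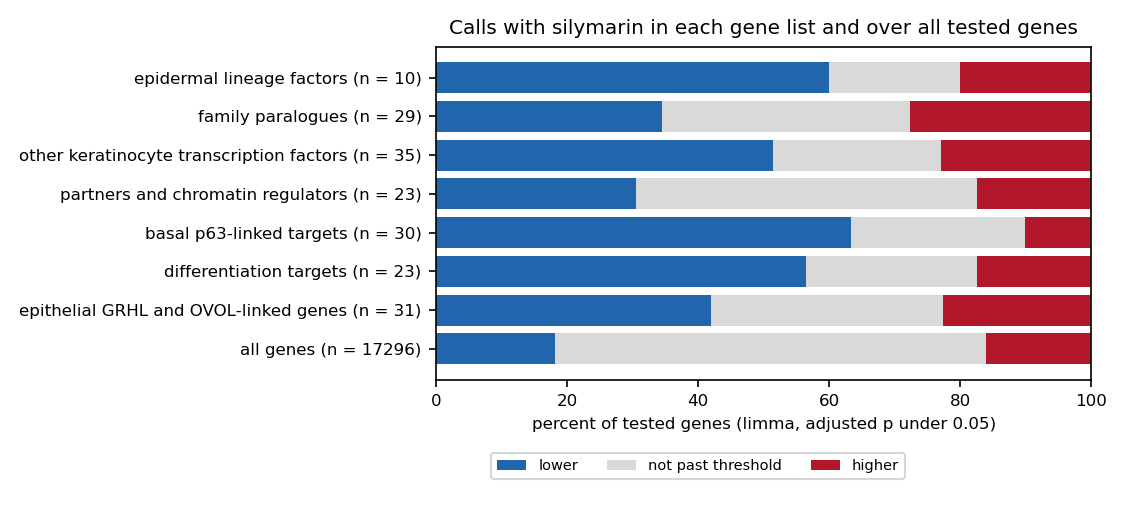
Share of tested genes (horizontal axis, percent) called lower, not past the threshold or called higher with silymarin, for the 10 members, 6 lists of related genes and all tested genes, with the number tested beside each name. Among all tested genes 18.2% were lower and 16% higher, while 6 of the 10 members were lower and 2 higher.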

How the data were processed

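Poly(A) RNA from 6 HaCaT cultures was sequenced, 3 given TGF-β1 and 3 given both TGF-β1 and silymarin. The submitters' processing notes list the tools TopHat2 2.1.1, featureCounts, DESeq2, Subread 1.5.2, cutadapt 1.15 and bcl2fastq 2.18.12. Genome build and counting strand are not given in the sources used here. What the authors deposited is a signal per gene, read counts divided by a size factor: in each column all values were whole multiples of 1 step (tolerance 1e-06 reads). Whole reads were recovered for 100% of values in 5 libraries. The values of TGF-β1 replicate 3 were also whole multiples of its step (1.01136), but they were not taken as reads. That library was kept out of count models, so the edgeR and DESeq2 fits also lack it.

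Tested were genes that reached 10 normalized counts in 3 or more libraries, with limma 3.58.1 (R 4.3.3, trended prior) on log2(value + 1), which understates changes of low genes. P-values were adjusted by Benjamini-Hochberg over all tested genes. The procedure was tested on simulated data. The edgeR 4.0.16 quasi-likelihood test on recovered reads called 4675 of 17843 genes. It and DESeq2 1.42.0 were added as alternatives after the data were seen. Other alternatives were scalings, filters, pseudocounts, a stricter threshold, a replicate block, a spline correction for GC content and length, and leaving out each library. P-values rest on the spread between these replicates, which limma draws for each gene toward the spread of genes of similar level.

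The members and lists were chosen with earlier results of these data known. All members were named. In each other list, the called genes with the 4 smallest p-values were named, those of a direction with 3 or fewer calls, and 6 genes regardless of value. A few genes taken by this rule are not reported here. Gene positions and exon lengths are those of GENCODE 29 (GRCh38), matched by identifier, and may differ from the authors' build. Promoter windows are from RefSeq.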

Additional observations from a re-analysis of the deposited data

How the results depend on the processing

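KLF4, KLF5, GRHL2, GRHL3, OVOL1, PRDM1 and ZNF750 kept their direction and call under every alternative that tested them. A filter of at least 50 normalized counts left PRDM1 and ZNF750 untested, so 4 members fell there. Of all 13599 genes tested with that filter, 2523 were higher and 2782 lower. GRHL1 kept its direction but lost its call with DESeq2 (0.27) and edgeR (0.27) on the reads of 5 libraries, at an adjusted p under 0.01 (0.26) and with no filter (0.26), so that 1 member rose in each. Without 1 library GRHL1 ranged from 0.21 to 0.30, TP63 from -0.17 to -0.052 and SOX15 from -0.051 to 0.12, with 1 to 2 members higher and 6 to 7 lower. With the GC and length correction TP63 passed at -0.12, without and with the replicate block, and 7 members fell. Of 16828 tested genes 3741 fell without and 3766 with the block. The cause of these changes was not tested. Over all genes, DESeq2 called 1544 higher and 1949 lower of 17787, and edgeR 2111 higher and 2564 lower of 17843. The stricter threshold called 1667 higher and 2194 lower of 17296. With no filter 2548 were higher and 3082 lower of 29589. Leaving out 1 library gave 1969 to 3516 higher and 2421 to 3711 lower, and library-size scaling moved the median log2 fold change to 0.024.

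Deviations of same-numbered libraries correlated at -0.039, 0.042 and 0.023, and those of different-numbered libraries at between -0.086 and 0.078. No pairing by replicate number was seen. These values cannot exclude one, because trends with GC content differed between libraries. With the replicate block GRHL1 lost its call (0.26, adjusted p = 0.0605), leaving 1 member higher and 6 lower, and 2630 genes were higher and 3048 lower. Depth limits ZNF750 and PRDM1, which had 3 to 39 and 17 to 68 reads per library.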
